A study of Mus musculus with 4 samples.

Results

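The genes described here are 9 members of the extracellular proteolysis system that macrophages use on the matrix around them: 4 matrix metalloproteinases (Mmp9, Mmp12, Mmp13 and Mmp14), 2 of their inhibitors (Timp1 and Timp2), and 3 genes of plasminogen activation (Plau, Plaur and Serpinb2). They were chosen with earlier results of these data known and matched by gene name. Shares over all genes set beside them are therefore a scale and no test. On the array, 14 of the 56605 non-control probes carried one of these names, for 9 of 37008 genes and transcripts. The cells were RAW264.7, an established line of mouse macrophages, in 4 groups of 1 array each: Mfp2-/- cells with lipopolysaccharide (LPS), Mfp2-/- cells without it, wild-type cells with LPS and wild-type cells without it. LPS comes from the outer wall of Gram-negative bacteria and is sensed by macrophages through a Toll-like receptor. Hsd17b4 encodes Mfp2, an enzyme of peroxisomal fatty acid breakdown, and cells labelled Mfp2-/- are called knockout below. The sources used here do not say how the knockout was made, whether it is 1 clone, or at what dose and for how long LPS was given.

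Matrix metalloproteinases are zinc enzymes that are made as inactive precursors and cut collagens, elastin and many signalling proteins once activated. The TIMP proteins bind their active sites and block them. In the plasminogen branch, urokinase (Plau) held on its receptor (Plaur) turns plasminogen into plasmin, a broad protease that can also activate metalloproteinase precursors, and the serpin encoded by Serpinb2 inhibits urokinase. Macrophages make many of these genes after Toll-like receptor stimulation, and Mmp12 takes its name, macrophage elastase, from these cells.

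Each array held between 47.4% and 49.7% of its non-control spots well above background, and 0 of them were saturated. Values are log2 signals minus the 75th percentile of the same array, so 0 is the level of a fairly bright probe, and a value "not well above background" is only an upper limit. With 1 array per group no p-value was computed and the number of arrays limits the precision. The technical SD given beside a difference comes from the scanner software's error model, which assumes an error of 10% per spot, while replicate spots of a probe had median SDs between 0.037 and 0.076 on the log2 scale. Neither covers the spread between cultures, and each array also had its own position on the slide, which cannot be told apart from its group. All 8 macrophage markers checked were well above background on all 4 arrays. Of markers of other cells, Cd3e, Cd4, S100a8 and Elane were above background on every array, and Dcn, a fibroblast marker, on the 2 LPS arrays (the summed fibroblast list was -2.49 in knockout with LPS, -4.02 in knockout untreated, -1.89 in wild type with LPS and -3.10 in wild type untreated), and their part in the results was not tested. Cdh1, an epithelial marker, was above background in knockout untreated and in wild type with LPS, at least 2.08-fold higher with LPS in wild type and past 2-fold lower, also as a bound, in knockout against wild type with LPS. The summed epithelial list was -4.19 in knockout with LPS, -3.15 in knockout untreated, -2.54 in wild type with LPS and -4.02 in wild type untreated. Ms4a1, a B cell marker, was above background in untreated wild type, with no call past 2-fold, and the summed B cell list was -4.03, -3.24, -3.49 and -2.78 in the same order of arrays. The part of these 2 lists in the results was not tested. Of 5 osteoclast markers, 4 were above background on all arrays, while Calcr was above background on none. Genotype differences past 2-fold went in both directions. In knockout against wild type, Dcstamp was -1.52 with LPS and -1.25 untreated, Ocstamp -3.26 and -2.72, and Ctsk 1.12 and 1.88. Acp5 was within 2-fold in both conditions. The summed osteoclast list was 6.89, 6.92, 7.29 and 6.47 in the same order of arrays, and its part in the results was not tested either. Hsd17b4 signal was -1.17 in knockout against wild type with LPS and -0.86 untreated (log2), so its transcript was lower but still well measured in the arrays labelled Mfp2-/-.

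Of the 9 genes, 8 had a probe well above background on at least 1 array and 4 (Mmp9, Timp1, Plau and Plaur) on all 4 arrays. Mmp14, which encodes the membrane-anchored metalloproteinase that activates other precursors at the cell surface, was not well above background on any array. With LPS, 5 of the 8 measurable members were at least 2-fold higher in knockout cells (Mmp9, Mmp13, Timp1, Plaur and Serpinb2) and 1 was lower (Timp2), on a background of 11.0% of all compared genes higher and 12.5% lower. In wild-type cells 6 of 8 were at least 2-fold higher with LPS, the same 5 and Mmp12, and Timp2 was again lower. The background there was 9.71% higher and 8.58% lower. Enrichment of the members over these shares was not tested, since the list was chosen with earlier results known. The median of the 8, with each bound taken at its limit, was 3.50 in knockout and 2.68 in wild type. Medians over all compared genes were 0.0029 and 0.013. In knockout the middle values were the bounds of Serpinb2 (2.95) and Mmp13 (4.05). In wild type they were the bound of Mmp13 (2.28) and the measured Plaur (3.07). The 2 medians are therefore no measure of a genotype difference. In bulk RNA, fewer cells making a transcript and less transcript per cell cannot be told apart.

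**Figure D1:**
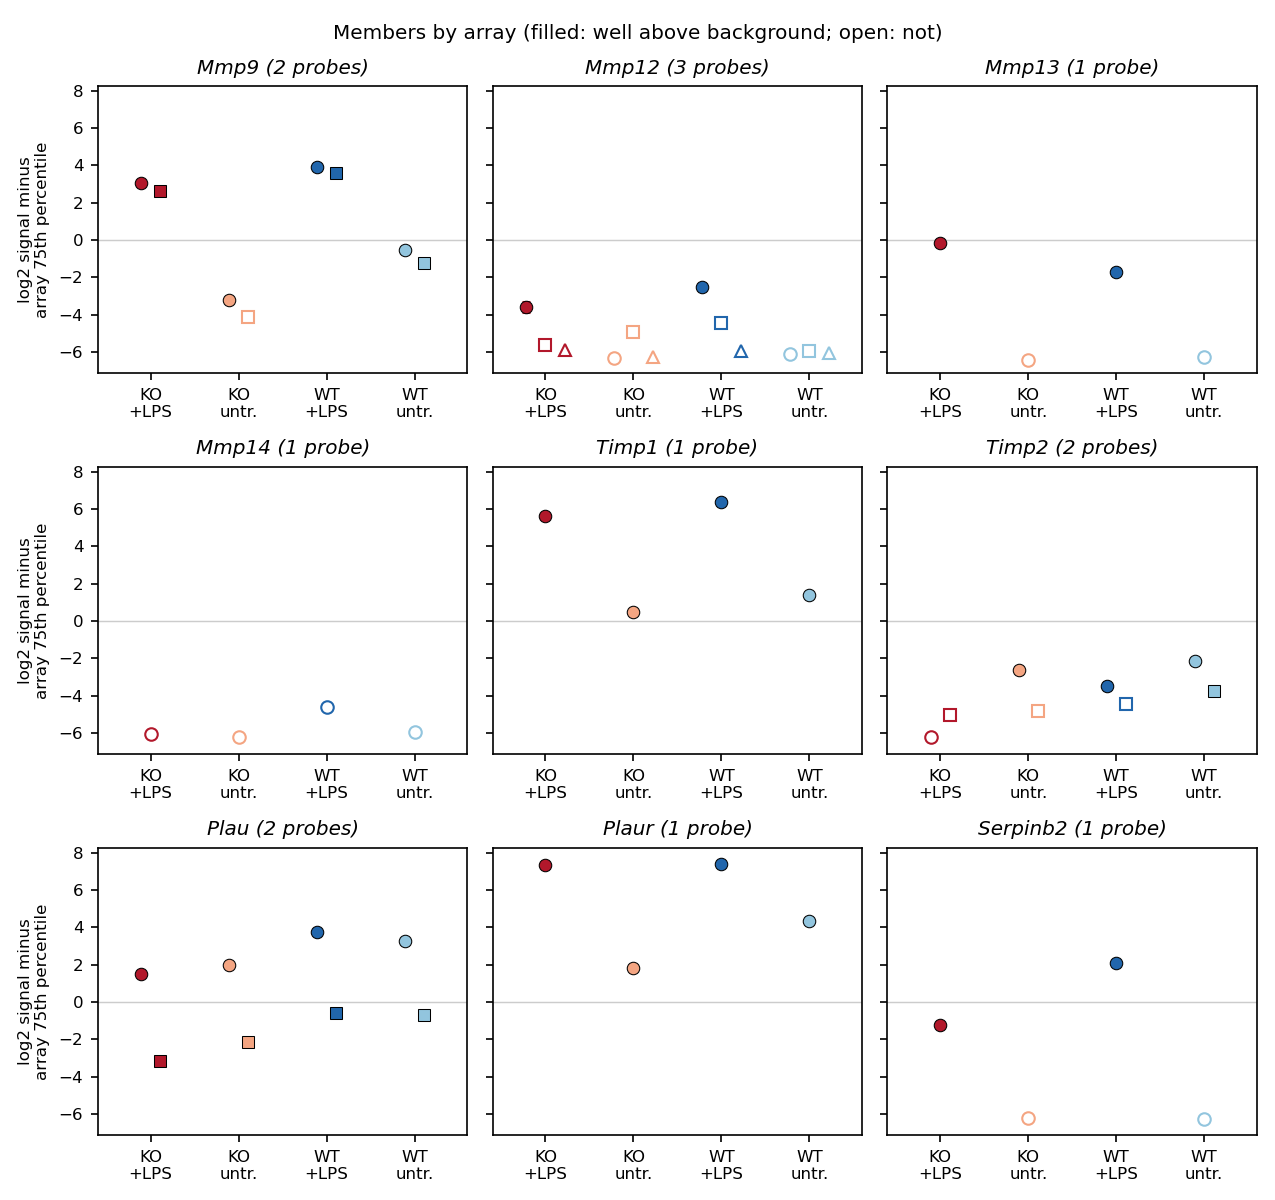
Scaled log2 signal of every probe of the 9 genes on the 4 arrays, 1 panel per gene, with knockout (KO) and wild type (WT) with LPS and untreated (untr.) along the horizontal axis. Filled symbols were well above background and open ones were not; symbol shapes are different probes of a gene, and error bars (the scanner's error model) are mostly smaller than the symbols. Mmp9, Timp1 and Plaur are higher on both LPS arrays, Plau is lower in knockout on both probes, and Mmp14 is open throughout.

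Mmp9, or gelatinase B, which cuts denatured collagen and basement membrane, was high in both LPS-treated cultures and lowest in untreated knockout cells. Its brighter probe (A_66_P130121) read 3.08 in knockout with LPS, -3.21 in knockout untreated, 3.93 in wild type with LPS and -0.52 in wild type untreated. The probe's coordinates span an intron, so it reads spliced transcript, and its sequence is shown because the size of the Mmp9 response rests on it.
Mmp9 A_66_P130121, mm9 chr2:164779091-164780300: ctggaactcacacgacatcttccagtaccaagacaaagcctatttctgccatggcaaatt
With LPS, Mmp9 was 78.3-fold higher in knockout cells (6.29, technical SD 0.26, rank 20 of 15961 measured genes) and 21.8-fold higher in wild-type cells (4.45, technical SD 0.21, rank 50 of 16087). The second probe (A_52_P507214) read 2.62, -4.14 (not well above background), 3.58 and -1.22 on the 4 arrays in the same order. It was at least 108-fold higher with LPS in knockout and 27.9-fold higher in wild type, so both probes gave the same direction and a larger value in knockout. Between genotypes, Mmp9 was -0.85 (technical SD 0.20) with LPS, below 2-fold, and -2.69 (technical SD 0.26) untreated, or 15.5% of the wild-type signal. With normexp background correction, which raises the lowest signals, the untreated difference was -1.44, still past 2-fold.

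Mmp13, the main interstitial collagenase of the mouse, was seen only on the LPS arrays and was the one member at least 2-fold higher in knockout than in wild type. Its single probe (A_51_P184484, mm9 chr9:7282762-7282821) read -0.14 in knockout with LPS, -6.42 in knockout untreated, -1.72 in wild type with LPS and -6.25 in wild type untreated, and both untreated values were not well above background. The LPS arrays were at least 16.6-fold higher in knockout and at least 4.85-fold higher in wild type. Knockout cells with LPS had 2.99 times the wild-type signal (1.58, technical SD 0.22, rank 52 from the top of 16102 measured genes).

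Mmp12, macrophage elastase, was weak and appeared with LPS on 1 of its 3 probes. That probe (A_55_P2788594, mm9 chr9:7358559-7358618) read -3.58 in knockout with LPS and -2.50 in wild type with LPS, against -6.34 in knockout untreated and -6.13 in wild type untreated, which were not well above background. The bound was at least 2.83-fold higher with LPS in wild type and at least 1.53-fold in knockout, which is under the 2-fold threshold. With LPS the knockout signal was 47.4% of wild type (-1.08, technical SD 0.37). Near the threshold this call was not stable: the difference was -0.98 with quantile normalization and in the deposited series table, -0.91 with median centring and -0.35 with normexp, and the wild-type LPS bound was 0.63 with normexp. The other 2 Mmp12 probes lie further 5′ in the gene and were not well above background on any array. One of them crosses an intron and is shown because it is placed to read spliced Mmp12 transcript, which it did not detect here. The Mmp12 values thus rest on 1 probe.
Mmp12 A_51_P313674, mm9 chr9:7354810-7355325: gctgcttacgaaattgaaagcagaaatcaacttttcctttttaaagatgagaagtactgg

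Mmp12 and Mmp13 lie in a run of 10 metalloproteinase genes on chromosome 9 in the GRCm38.p6 annotation, in the order Mmp13, Mmp12, Mmp1b, Mmp3, Mmp1a, Mmp10, Mmp8, Mmp27, Mmp20 and Mmp7. All 10 were on the array and 3 were well above background on at least 1 array: Mmp13, Mmp12 and Mmp3. Mmp3, stromelysin 1, which cuts proteoglycans and activates other metalloproteinase precursors, had signals of 261 in knockout with LPS, 4.24 in knockout untreated, 105 in wild type with LPS and 4.75 in wild type untreated. It was at least 15.7-fold higher with LPS in knockout and at least 5.21-fold in wild type, and with LPS it was 2.64-fold higher in knockout than in wild type. Mmp13 and Mmp3 were thus both higher in knockout with LPS, while Mmp12, which lies between them, had a lower signal there.

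Timp1, the secreted inhibitor that binds most metalloproteinases and forms a complex with the Mmp9 precursor, was higher with LPS by nearly the same factor in both genotypes. It has 1 probe, whose sequence is given because it alone carries the result.
Timp1 A_52_P87713, mm9 chrX:20451675-20451733: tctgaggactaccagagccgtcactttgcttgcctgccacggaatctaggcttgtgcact
The probe read 5.64 in knockout with LPS, 0.49 in knockout untreated, 6.38 in wild type with LPS and 1.40 in wild type untreated. The LPS difference was 35.6-fold in knockout (5.15, technical SD 0.20) and 31.5-fold in wild type (4.98, technical SD 0.20). Both knockout arrays lay below their wild-type counterparts by less than 2-fold, at 60.0% of wild type with LPS and 53.1% untreated.

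Timp2, an inhibitor that also takes part in activation of the Mmp2 precursor at the cell surface, was the only member at least 2-fold lower with LPS. Its brighter probe (A_52_P540219, mm9 chr11:118163146-118163205) read -6.22 in knockout with LPS (not well above background), -2.64 in knockout untreated, -3.47 in wild type with LPS and -2.15 in wild type untreated. With LPS it was at least 2.46-fold lower in knockout and 2.49-fold lower in wild type (-1.32, technical SD 0.32). The signals were dim, and with normexp the differences were -0.41 and -0.53, under 2-fold; the mean of both probes gave a bound of -0.21 in knockout. The second probe was above background in untreated wild type only, and its sequence is shown because it crosses an intron 5′ of the first.
Timp2 A_65_P12392, mm9 chr11:118171964-118178741: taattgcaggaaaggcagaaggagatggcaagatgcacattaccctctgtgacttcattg
In untreated cells Timp2 was 70.9% of wild type in knockout, and with LPS the bound on its genotype difference was at least 1.39-fold lower in knockout.

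**Figure D2:**
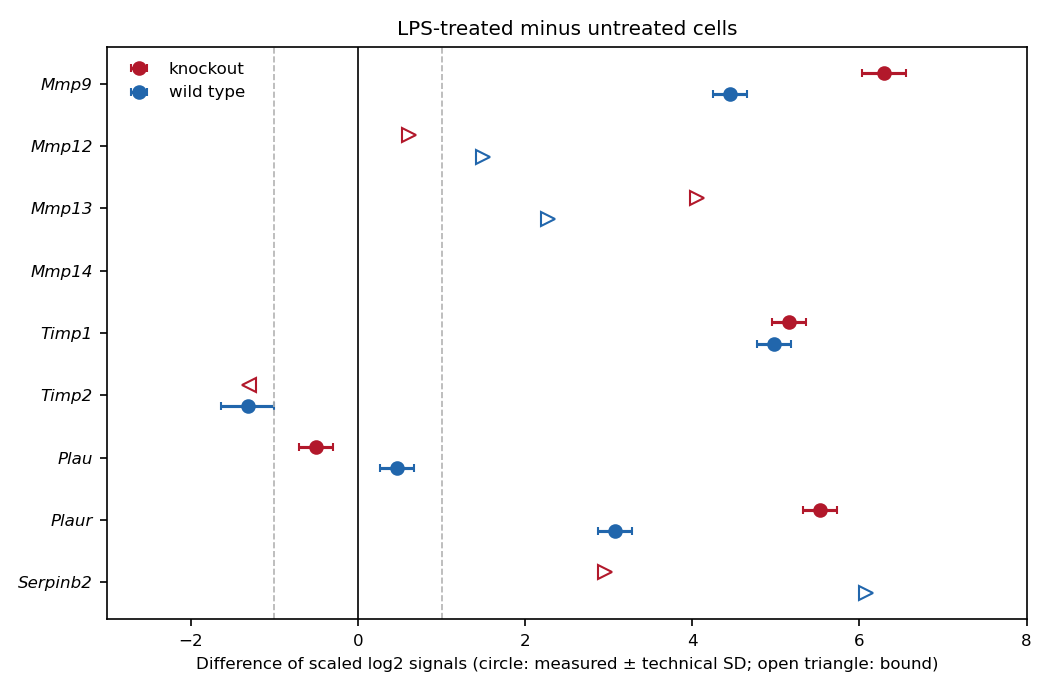
Difference between LPS-treated and untreated cells on the log2 scale for the main probe of each gene, knockout (red, upper) and wild type (blue, lower). Circles are measured differences with the technical SD, open triangles are bounds where an array was not well above background, and dashed lines mark 2-fold. Mmp9 reaches 6.29 in knockout and 4.45 in wild type, Plaur 5.53 and 3.07, and Timp1 5.15 and 4.98, while Plau lies within 2-fold of 0 in both.

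Plau, the gene of urokinase, differed by less than 2-fold with LPS and was lower in knockout cells in both conditions. Its brighter probe (A_55_P2842483, mm9 chr14:21662487-21662546) read 1.49 in knockout with LPS, 1.99 in knockout untreated, 3.74 in wild type with LPS and 3.27 in wild type untreated. Both knockout arrays were thus below both wild-type arrays. The second probe, which crosses an intron upstream of the first, is shown because it repeats this order on a separate stretch of the transcript.
Plau A_51_P305311, mm9 chr14:21659855-21660221: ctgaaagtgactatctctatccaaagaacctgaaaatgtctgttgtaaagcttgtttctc
It read -3.15 in knockout with LPS, -2.16 in knockout untreated, -0.60 in wild type with LPS and -0.71 in wild type untreated. Knockout cells had 21.0% of the wild-type signal with LPS on the first probe (-2.25, technical SD 0.20) and 17.1% on the second (-2.55, technical SD 0.31). Untreated, they had 41.1% (-1.28, technical SD 0.20) and 36.6% (-1.45, technical SD 0.23). The LPS differences stayed under 2-fold on both probes. On the first probe they had opposite signs, -0.50 in knockout and 0.47 in wild type (technical SD 0.20 each). On the second they were -0.99 in knockout (technical SD 0.32) and 0.10 in wild type. The latter lies within its technical SD of 0.21, so its sign is not settled.

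Plaur, the membrane receptor that holds urokinase at the cell surface, had nearly the same level with LPS in both genotypes but a lower one in untreated knockout than in untreated wild type. Its probe (A_52_P681310, mm9 chr7:25260569-25260628) read 7.33 in knockout with LPS, 1.80 in knockout untreated, 7.40 in wild type with LPS and 4.33 in wild type untreated. It was 46.1-fold higher with LPS in knockout (5.53, technical SD 0.20, rank 36 of 15961) and 8.41-fold higher in wild type (3.07, technical SD 0.20, rank 168 of 16087). Untreated knockout cells had 17.3% of the wild-type signal (-2.53, technical SD 0.20, rank 58 from the bottom of 16407 measured genes). With LPS the knockout signal was 94.8% of wild type, a difference of -0.08 that lies within its technical SD of 0.20 and took either sign under the scaling alternatives (-0.36 to 0.09).

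Serpinb2, the urokinase inhibitor also called plasminogen activator inhibitor type 2, was not well above background in untreated cells and was the member with the largest measured genotype difference. Its probe (A_51_P101146, mm9 chr1:109421496-109421555) read -1.24 in knockout with LPS, -6.20 in knockout untreated, 2.08 in wild type with LPS and -6.28 in wild type untreated, and the untreated values were not well above background. With LPS it was at least 7.75-fold higher in knockout and at least 67.5-fold higher in wild type. Knockout cells with LPS had a 9.96-fold lower signal than wild type (-3.32, technical SD 0.21), rank 18 from the bottom of 16102 measured genes.

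Between genotypes with LPS, 1 of 8 compared members was at least 2-fold higher in knockout (Mmp13) and 3 were lower (Mmp12, Plau and Serpinb2), on a background of 1.86% of all compared genes higher and 4.39% lower. Untreated, 0 of 5 compared members were higher in knockout and 3 were lower (Mmp9, Plau and Plaur), on a background of 3.08% higher and 3.90% lower. The members' median difference was -0.79 with LPS and -1.28 untreated, against 0.044 and 0.052 over all compared genes. Of the 3 genes lower in untreated knockout, Plau was also past 2-fold with LPS, Mmp9 was nearer to wild type there and Plaur equal to it within the technical SD. The genotype comparisons share arrays with the LPS comparisons, so their values are not independent. Enrichment of the members over the background was not tested here either.

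**Figure D3:**
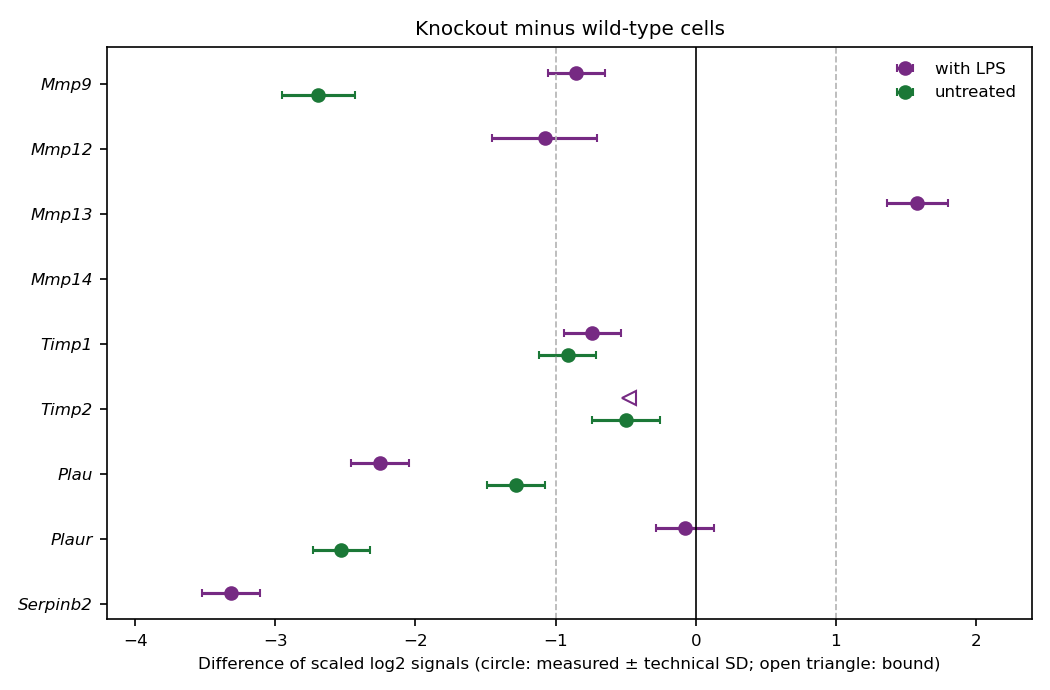
Difference between knockout and wild-type cells on the log2 scale for the main probe of each gene, with LPS (purple, upper) and untreated (green, lower). Symbols and dashed lines are as in the plot of LPS differences; a gene with no symbol was not well above background on either array compared. Serpinb2 (-3.32) and Plau (-2.25) are lowest with LPS, Mmp9 (-2.69) and Plaur (-2.53) are lowest untreated, and Mmp13 with LPS (1.58) is the one value above 0.

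The size of the LPS response in knockout against that in wild type was compared for the 4 members above background on all arrays. Plaur had a larger response in knockout by 2.45 (technical SD 0.29), a value that 19 of 15516 genes reached or exceeded, itself included. Mmp9 was larger by 1.84 (technical SD 0.33), reached or exceeded by 50 genes. Timp1 differed by 0.18 (technical SD 0.29), which its technical error covers. Plau was -0.97 (technical SD 0.29) on its first probe and -1.09 (technical SD 0.39) on its second. Thus 2 of the 4 were 1 or more higher and 0 were 1 or more lower on their main probe, on a background of 1.69% of genes higher and 2.91% lower. The Plaur value stayed between 2.17 and 2.57 under the 8 alternatives of scaling, filter and probe choice that gave it, whereas the Mmp9 value was 0.68 with normexp. The Mmp9 signal in untreated knockout was 39.9, against 19.7 to 22.4 for the lowest signal well above background on an array.

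**Figure D4:**
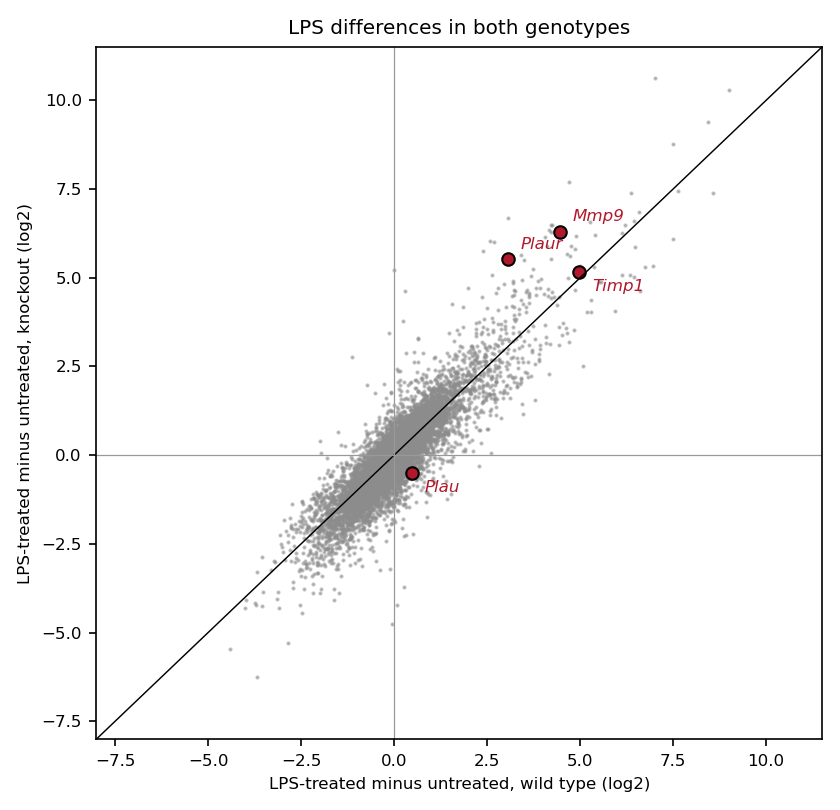
LPS difference in knockout (vertical axis) against that in wild type (horizontal axis), both log2, for genes above background on all 4 arrays (grey points), with 4 members in red. The diagonal is equal response. Plaur and Mmp9 lie above it by 2.45 and 1.84, Timp1 lies on it within 0.18, and Plau lies below it by 0.97.

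Other genes of plasminogen activation are given by the values of 3 of them. Lrp1, the endocytic receptor that clears urokinase complexes, was -1.08 with LPS in knockout and -0.61 in wild type. Anxa2, part of a surface receptor for plasminogen, was within 2-fold in every comparison (0.77 and 0.54 with LPS, -0.51 and -0.75 between genotypes). Serpinf2, the plasmin inhibitor, was above background in untreated knockout only, at least 2.07-fold lower with LPS there. As a bound it was also at least 2-fold higher in untreated knockout than in untreated wild type. Both calls rest on a signal of 49.9 on 1 array.

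Of 19 other metalloproteinase genes, 4 could be compared with LPS in each genotype. In knockout Mmp3 was higher and Mmp19 lower (-1.64), and in wild type Mmp3 alone was higher, with Mmp19 at -0.24. Mmp17 (0.59 and 0.93) and Mmp28 (-0.13 and 0.16) were within 2-fold. Of 6 other inhibitors of metalloproteinases, Spock1, a proteoglycan of the testican group, was above background, at -0.68 with LPS in knockout and -0.01 in wild type. Among 17 ADAM and ADAMTS proteinases, 3 of 11 were higher and 2 lower with LPS in knockout (median 0.27), and 3 of 9 higher and 0 lower in wild type (median 0.36). Over all genes the shares with LPS were 11.0% higher and 12.5% lower in knockout, and 9.71% and 8.58% in wild type. Adamts4, an aggrecan-cutting enzyme, was at least 13.4-fold higher with LPS in knockout and at least 5.85-fold in wild type, and with LPS it was 2.01-fold higher in knockout than in wild type. Adamts1 was at least 2.65-fold higher with LPS in knockout and at least 5.73-fold in wild type, and -1.31 in knockout against wild type with LPS.

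Of 15 other clade B serpins, 3 of 6 compared with LPS were lower in knockout and 0 higher (median -0.86), and 1 of 7 was lower untreated (median -0.21). Over all genes, 4.39% were lower and 1.86% higher with LPS, and 3.90% were lower untreated. Serpinb6b was -2.64 with LPS and -2.18 untreated, Serpinb9, the granzyme B inhibitor, -1.75 and -0.64, and Serpinb1a, an inhibitor of neutrophil proteases, -1.07 and 0.63. Between LPS-treated and untreated cells, 2 of 7 were higher and 2 lower in knockout, against 11.0% and 12.5% of all genes. In wild type 2 of 8 were higher and 0 lower, against 9.71% and 8.58%. Serpinb6b and Serpinb9 were the higher ones in both genotypes (1.30 and 1.84 in knockout, 1.76 and 2.94 in wild type). Serpinb1a and Serpinb12 were the lower ones in knockout. Serpinb2 itself stands in a row of 12 clade B genes on chromosome 1, of which 4 were above background on at least 1 array; its neighbours in that row, Serpinb7 and Serpinb10, were not.

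Of 9 partners of the urokinase receptor, 3 of 8 were higher and 1 lower with LPS in knockout (median 0.82), and 4 of 8 higher and 0 lower in wild type (median 1.03). For this and the next 2 lists, the shares over all genes were 11.0% higher and 12.5% lower in knockout, and 9.71% and 8.58% in wild type. Itga5, the alpha chain of the fibronectin receptor, was 3.55 and 2.20, and the formyl peptide receptor genes were among the most different, Fpr1 with bounds of 5.65 in knockout and 4.53 in wild type, and Fpr2 at 7.86 in knockout with a bound of 6.99 in wild type. Itgb3, the vitronectin receptor beta chain, was -1.13 with LPS in knockout and 0.96 in wild type, and 2.46 in untreated knockout against wild type. Of 10 activators and partners of metalloproteinases, Lcn2, whose protein binds Mmp9, was 10.28 with LPS in knockout and 8.99 in wild type. Cd44, a docking receptor for Mmp9, was 3.45 and 2.21 on its main probe. Other Cd44 probes gave smaller values, 2.54 and 1.46 on A_55_P2912261 and 2.21 and 1.03 on A_55_P2166488. With Cd9, Lcn2 and Cd44 made 3 of 8 higher in knockout, against 2 of 8 in wild type and 0 lower in either. Cd9 read 6.90 with LPS and 5.72 untreated in knockout. In wild type it read 7.06 and 6.07, just under 2-fold, so the counts differ through the threshold. Of 12 cathepsins and cystatins 1 of 10 was higher with LPS in knockout and 1 lower (median 0.37), and 0 of 9 higher and 1 lower in wild type (median 0.63). The higher one was Stfa3, above background in knockout with LPS only. Stfa3 was also at least 2-fold higher there than in wild type with LPS. The knockout counts were near the shares over all genes. Ctsk, the bone-resorbing cathepsin of osteoclasts, was 1.12 in knockout against wild type with LPS and 1.88 untreated, opposite to Plau and Serpinb2. Ctsh was -2.20 with LPS in knockout and -1.89 in wild type.

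**Figure D5:**
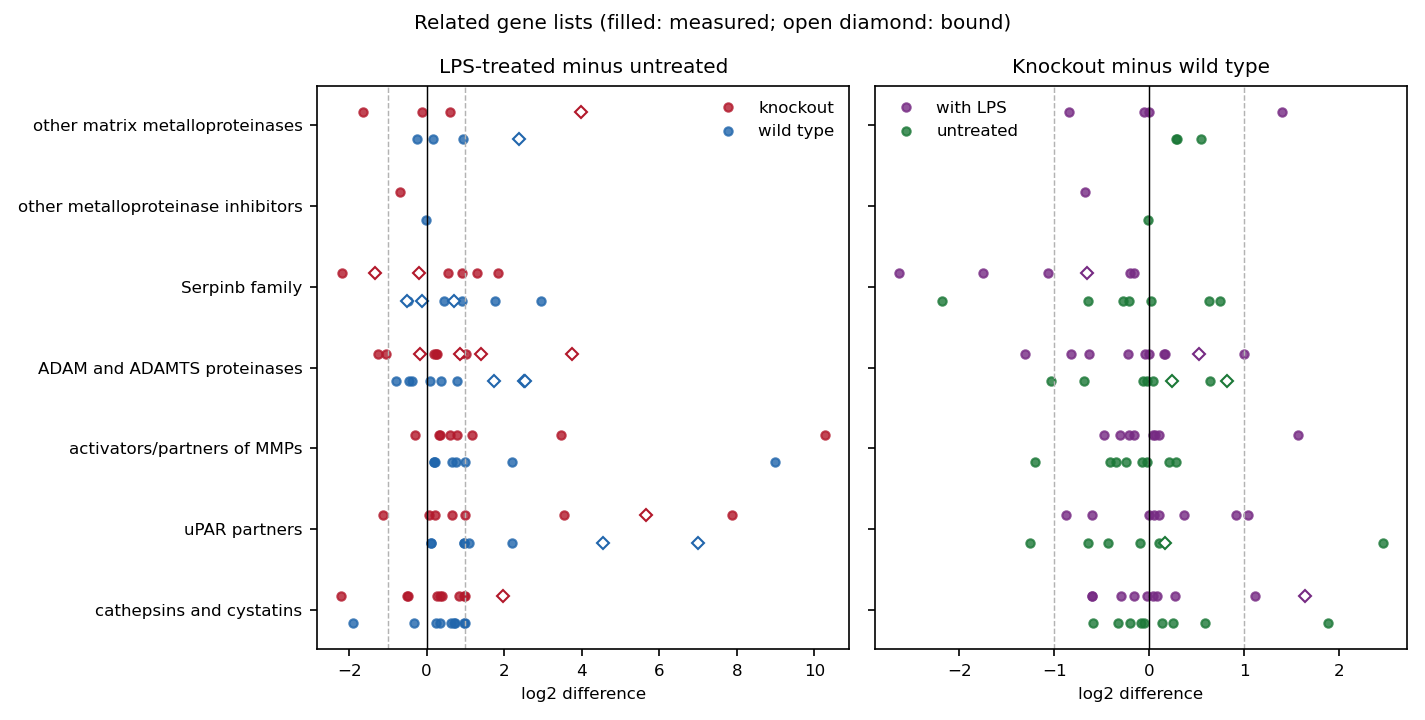
Log2 differences of the genes in 7 related lists, LPS-treated minus untreated on the left (knockout red, wild type blue) and knockout minus wild type on the right (with LPS purple, untreated green). Each point is 1 gene, filled where measured and an open diamond where only a bound could be given, and dashed lines mark 2-fold. Lcn2 is the point farthest right with LPS (10.28 in knockout and 8.99 in wild type), and Serpinb6b is the lowest of the clade B serpins between genotypes (-2.64 with LPS and -2.18 untreated).

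The genes whose pattern over the 4 arrays lay nearest to a member were found by the Euclidean distance between mean-centred log2 values, over 11089 protein-coding genes above background on all arrays. With 4 points this is a description, and it shares the arrays with every difference above. Nearest to Plaur were the chemokine gene Ccl4 (distance 0.096), the AP-1 subunit gene Fosl1 (0.44) and the polo-like kinase gene Plk2 (0.56), against a median distance of 4.69 over all genes. Nearest to Mmp9 were Il1rn (0.67), the interleukin-1 receptor antagonist, Rgs16 (0.83) and the MAP kinase phosphatase gene Dusp5 (1.01). Nearest to Timp1 were Procr (0.48), the endothelial protein C receptor, Socs3 (0.52) and Fabp4 (0.73). Nearest to Plau, whose profile is flatter, were E2f4 (0.22), Pmp22 (0.28) and Prune2 (0.37), against a median of 1.99.

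Promoters were read for the members in the RefSeq table of GRCm38.p6, which gave 9 windows of 250 bases before a transcription start for 7 genes, with Mmp9 and Plau not analysed here. They were searched on both strands for the AP-1 site TGACTCA and for the NF-kB consensus. The AP-1 letters were in a window of 3 members, Mmp12, Mmp13 and Plaur, and in 4.46% of all 32851 windows. The NF-kB consensus was in 1 window, the other Mmp12 window, and in 7.25% of all windows. The 3 windows with the AP-1 letters, in capitals, are shown because these 3 members share the motif; the motif starts 44, 35 and 69 bases before the transcription start.
Mmp12, GRCm38.p6 chr9:7347124-7347373, plus strand: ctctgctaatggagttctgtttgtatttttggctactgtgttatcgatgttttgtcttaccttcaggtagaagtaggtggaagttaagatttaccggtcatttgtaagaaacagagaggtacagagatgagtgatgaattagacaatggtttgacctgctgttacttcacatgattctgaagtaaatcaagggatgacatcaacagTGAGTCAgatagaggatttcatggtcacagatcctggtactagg
Mmp13, GRCm38.p6 chr9:7272264-7272513, plus strand: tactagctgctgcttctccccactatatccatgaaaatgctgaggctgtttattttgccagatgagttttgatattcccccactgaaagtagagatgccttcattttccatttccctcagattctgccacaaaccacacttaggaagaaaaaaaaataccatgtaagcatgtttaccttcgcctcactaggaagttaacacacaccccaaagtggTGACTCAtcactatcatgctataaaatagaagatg
Plaur, GRCm38.p6 chr7:24462233-24462482, plus strand: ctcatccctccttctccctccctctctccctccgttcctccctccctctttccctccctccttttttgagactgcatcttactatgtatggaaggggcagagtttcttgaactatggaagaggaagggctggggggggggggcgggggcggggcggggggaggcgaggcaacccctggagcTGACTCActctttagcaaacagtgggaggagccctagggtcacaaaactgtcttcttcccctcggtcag
These 3 genes differed in the direction of their genotype difference with LPS: Mmp13 was higher in knockout, Mmp12 had a lower signal and Plaur differed by less than its technical SD.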

How the data were processed

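Each of 4 RNA samples was read in 1 colour on Agilent array design 074809, 1 array per group, on 1 slide with 1 scan time. Per the file headers, spot intensity came from Feature Extraction 10.7.1.1; the submitters' processing notes name version 9.5.1.1. Per the file headers, the software had subtracted background and removed spatial trend from the deposited processed intensity. Flags of the unit type other (0 or 1 per spot) are as deposited. The deposited series table of intensity lay within 0.01 log2 of a quantile normalization for 52841 to 52979 of at most 56605 probes per array.

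Processed signals were taken to log2, averaged per probe and set relative to the array's 75th percentile (303 to 370 signal units), without control and outlier spots. A gene was represented by its probe with values on all 4 arrays, then one well above background, then the highest mean. A call needed 2-fold on measured values, or on a bound that put the dim array at its own signal or at the lowest one well above background, whichever was higher. Medians of members, lists and all genes took each bound at its limit. Members were matched by gene name; 32994 of 56605 probes took their name from a RefSeq accession and 520 from an older symbol. Members and lists were chosen with earlier results of these data known. All 9 members and the 3 genes nearest in pattern are named. Up to 5 genes per list with the largest range were picked for naming, but only part of them are described. Of those picked, values of Serpine2, Serpinb11, Adam12, Adam33, Adamts15, Pcsk7, Cd63, Itgb2, Ctsl and Ctsz are not given. Other list genes appear where a call needed a name. Counts over the list of other plasminogen genes, and 1 gene in it, are not reported here. No test was possible with 1 array per group. Calls were also tested on simulated data. Python 3.11.15, numpy 2.4.6, pandas 2.3.3, matplotlib 3.10.9, R 4.3.3 and limma 3.58.1 (normexp, offset 50) were used. The 10 alternatives are in the closing section.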

Additional observations from a re-analysis of the deposited data

Results flagged for a closer look

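Genes with opposite signs of the LPS difference in the 2 genotypes, each on 1 array per group, were singled out. Those given are members or genes picked for naming from the related lists, and other genes, such as Adam17, share the trait. The difference between the genotypes was not tested. Plau was -0.50 in knockout and 0.47 in wild type on its brighter probe, and -0.99 in knockout and 0.10 in wild type on its second probe. The last of these values lies within its technical SD of 0.21. Itgb3 was -1.13 in knockout and 0.96 in wild type, where the untreated signal was dim. Ctsk was -0.52 in knockout and 0.25 in wild type. Mmp28 was -0.13 in knockout and 0.16 in wild type.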

How the results depend on the processing

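No paired analysis was possible because each group has 1 array. Of 80 counts of members under 10 alternatives, 69 stayed within 1.5 times. Requiring both arrays above background left 3 members higher with LPS in each genotype and 0 lower in knockout, since bounds no longer count. With normexp 0 members were lower with LPS in either genotype, and the mean of probes gave 0 lower in knockout. A 4-fold threshold gave 0 lower with LPS in either genotype and 0 higher in knockout against wild type with LPS. No filter on dim probes and a 1.5-fold threshold each gave 5 lower there. The Mmp9 response difference was 0.68 with normexp. No called member difference changed sign. Over all genes, higher and lower calls with LPS in knockout were 2027 and 2294 (normexp 1343 lower, no filter 3475 and 3963, 1.5-fold 3720 and 4104, 4-fold 640 and 485). With LPS in wild type they were 1768 and 1562 (normexp 1155 and 917, no filter 3223 and 3026, 1.5-fold 3219 and 3186, 4-fold 608 and 274). In knockout against wild type with LPS they were 329 and 779 (normexp 126 and 309, median centring 532 higher, both arrays above background 209 and 456, no filter 1384 and 2210, 1.5-fold 1107 and 1705, 4-fold 37 and 177). Untreated they were 567 and 717 (normexp 216 and 308, both arrays above background 316 and 352, no filter 1875 and 2232, 1.5-fold 1347 and 1371, 4-fold 100 and 212). Spike-in centring moved the median of all genes by -0.23 and -0.21 for LPS in knockout and wild type, and the share of calls that were higher to 31.6% and 37.3%, against 46.9% and 53.1%. Median centring moved it by 0.14 for LPS in knockout and 0.17 for knockout against wild type with LPS, with shares of 57.1% and 46.4%, against 46.9% and 29.7%.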
